A study of Homo sapiens with 9 samples.

Results

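The genes described here are 40 NF-kB factors, targets and cytokines, taken by gene name from the 36225 genes of the deposited table; each of the 40 names matched 1 gene. They comprise 5 Rel-domain transcription factors, 5 IkB proteins, 7 feedback and survival regulators, 6 CXC chemokines with the glutamate-leucine-arginine (ELR) motif, 3 CC and CX3C chemokines, 7 interleukins including LIF, 2 colony-stimulating factors, and 5 adhesion molecules and effector enzymes. Sequencing of polyadenylated RNA was done on RBE, a widely used human cell line that stems from an intrahepatic cholangiocarcinoma (a bile duct tumour within the liver). The groups were RBE cells carrying a lentiviral short hairpin RNA against IDH1 (shIDH1), RBE cells carrying a lentiviral hairpin against JOSD2 (shJOSD2), and RBE cells carrying a scramble lentivirus (control), with 3 libraries each and 9 in all. All groups share the cell line, named in the series title as a setting of mutant IDH1, and the infection with lentivirus. IDH1 is the isocitrate dehydrogenase of the cytosol, and JOSD2 is a deubiquitinase of the Josephin family. Separate infections are not stated for the libraries within a group, and no hairpin sequence is named, so p-values reflect only how these libraries vary, and that variation may be technical. Levels are given in FPKM (fragments scaled to transcript length and library size), and changes as fitted log2 changes with their SE.

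NF-kB dimers of the Rel-domain proteins are held in the cytoplasm by IkB proteins until a kinase complex, IKK, marks the inhibitor for degradation, after which the dimers enter the nucleus and bind kappaB sites at target genes. In the canonical branch, receptors for TNF, IL-1 and microbial products act through IKK on p50 (from NFKB1) and RELA, while in the non-canonical branch the kinase NIK (from MAP3K14) drives processing of NFKB2, whose product pairs with RELB. Many targets encode chemokines, cytokines, survival factors and the pathway's own inhibitors, and bile duct epithelium is known to secrete such chemokines in inflammation.

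Library totals lay between 66036276 and 71612713 deposited counts. Of the counts from 1 to 20, 30.2% stood at multiples of 4. The value 4 was the most common, with 10737 entries, against 9771 at 1, 5505 at 3 and 3780 at 5. A part of the sequenced fragments may therefore carry about 4 counts each, which is inferred from these values only. IDH1 stood at 12.4, 13.1 and 12.3 FPKM in shIDH1 libraries, at 32.7, 35.2 and 35.5 FPKM in shJOSD2 libraries and at 45.6, 39.0 and 47.4 FPKM in control libraries. JOSD2 stood at 1.5, 1.85 and 1.7 FPKM in shIDH1 libraries, at 0.771, 0.708 and 0.906 FPKM in shJOSD2 libraries and at 6.66, 6.31 and 6.15 FPKM in control libraries. Each target was low in every library of its own hairpin, and each was also below every control library with the other hairpin. IDH1 was called lower in shJOSD2 cells too (log2 change -0.50; edgeR, BH-adjusted p = 8.66e-05). JOSD2 was called lower in shIDH1 cells by more (log2 change -1.90, edgeR, BH-adjusted p = 7.69e-07). With their own hairpins the log2 changes were -1.80 for IDH1 and -3.09 for JOSD2. All 6 biliary epithelial markers exceeded 1 FPKM in each group, with summed levels of 944.9 to 999.3 FPKM in shIDH1, 851.6 to 876.5 FPKM in shJOSD2 and 899.5 to 1072 FPKM in control libraries. Of 7 leukocyte markers, 2 exceeded 1 FPKM in each group (CD68 and LYZ), and the list summed to 26.4 to 29.8 FPKM in shIDH1, 25.0 to 32.9 FPKM in shJOSD2 and 32.4 to 40.02 FPKM in control libraries. The 4 endothelial markers summed to at most 1.14 FPKM in any library. Of 5 fibroblast markers, 3 exceeded 1 FPKM in shIDH1, 3 in shJOSD2 and 2 in control libraries, with LUM at 0 in both hairpin groups and DCN at 0 in control. The fibroblast list summed to 14.6 to 18.2 FPKM in shIDH1, 15.7 to 16.2 FPKM in shJOSD2 and 6.86 to 8.33 FPKM in control libraries, and 7 hepatocyte markers summed to 105.8 to 112.2 FPKM, 59.97 to 62.0 FPKM and 39.25 to 86.55 FPKM in the same order of groups. The hepatocyte list did not move together. SERPINA1, FGA and FGB were called higher and ALB, APOA1 and APOB lower than control with both hairpins, and TTR lower in shJOSD2 cells only. The part of these lists in the results below was not tested. Control replicate 1 stood apart from the other control libraries in some hepatocyte transcripts such as APOA1 (2.91 FPKM, against 40.05 and 45.55 FPKM in replicates 2 and 3). Against replicate 1 alone, the log2 change of APOA1 in shIDH1 cells was 0.08 in place of -3.31. Those of FGA and FGB shifted less, to 3.81 and 4.84 in place of 3.37 and 4.65. Results are therefore also given against replicate 1 as the lone control.

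The ELR chemokine genes lie together on chromosome 4, and their promoters are shown because 3 of the genes (CXCL1, CXCL2 and CXCL3) are near-copies of each other. The windows run from position -120 to -41 before the RefSeq start on the gene's own strand (RefSeq, GRCh38.p14), with the kappaB-like letters in capitals.
CXCL1 (chr4:73869273-73869352, plus strand): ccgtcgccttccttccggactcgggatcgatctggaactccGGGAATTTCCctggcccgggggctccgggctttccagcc
CXCL2 (chr4:74099236-74099315, minus strand): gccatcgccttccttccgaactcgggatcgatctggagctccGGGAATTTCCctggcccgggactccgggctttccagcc
CXCL3 (chr4:74038730-74038809, minus strand): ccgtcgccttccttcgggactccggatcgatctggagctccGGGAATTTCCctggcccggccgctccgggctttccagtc
CXCL5 (chr4:73998718-73998797, minus strand): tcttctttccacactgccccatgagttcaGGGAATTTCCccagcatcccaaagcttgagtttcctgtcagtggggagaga
CXCL6 (chr4:73836558-73836637, plus strand): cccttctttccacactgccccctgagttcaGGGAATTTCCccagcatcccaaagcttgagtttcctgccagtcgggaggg
CXCL8 (chr4:73740449-73740528, plus strand): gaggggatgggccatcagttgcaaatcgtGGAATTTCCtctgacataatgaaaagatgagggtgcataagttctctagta
GGGAATTTCC stands in 5 of the windows and GGAATTTCC in that of CXCL8. Over the 69 bases around the motif, the CXCL2 and CXCL3 windows were 81.2% and 89.9% identical to that of CXCL1, against 43.5% for CXCL5, 43.5% for CXCL6 and 37.7% for CXCL8.

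The promoters of NFKB1 and BIRC3, which have the furthest falls in shIDH1 cells and in shJOSD2 cells among called members with counts in every library, are shown over 250 bases before and 50 bases after the RefSeq start, with kappaB-like letters again in capitals.
NFKB1 (chr4:102501109-102501408, plus strand): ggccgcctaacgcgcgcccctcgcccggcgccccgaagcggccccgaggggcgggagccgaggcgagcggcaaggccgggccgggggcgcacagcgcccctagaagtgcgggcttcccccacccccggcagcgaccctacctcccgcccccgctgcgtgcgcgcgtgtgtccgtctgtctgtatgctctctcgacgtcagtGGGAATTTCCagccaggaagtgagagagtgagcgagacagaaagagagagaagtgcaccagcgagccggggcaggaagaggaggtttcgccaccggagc
BIRC3 (chr11:102317234-102317533, plus strand): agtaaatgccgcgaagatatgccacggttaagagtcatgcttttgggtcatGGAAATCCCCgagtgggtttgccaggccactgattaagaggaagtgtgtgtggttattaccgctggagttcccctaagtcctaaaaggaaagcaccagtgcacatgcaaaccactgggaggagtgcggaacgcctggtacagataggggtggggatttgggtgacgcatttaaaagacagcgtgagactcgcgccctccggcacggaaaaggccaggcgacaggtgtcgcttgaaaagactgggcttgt
Both strands of 300-base promoter windows were searched for 3 motifs, namely GGAATTTCC, GGAAATCCC and a looser one of GGG, any 2 bases and TTTCC; GGGAATTTCC holds both GGAATTTCC and the looser motif, and GGAAATCCCC holds both GGAAATCCC and, on the other strand, the looser motif. RefSeq windows were matched for 33 of the 40 members (all but RELB, NFKBIE, CCL2, CX3CL1, LIF, IL18 and CSF1), and 20 of these 33 genes (60.6%) held at least 1 of the 3 motifs, against 3.05% of the 27305 genes with a window. GGAATTTCC alone was in 0.461%, the looser motif in 1.91% and GGAAATCCC in 0.393% of the 35116 windows searched. The members were listed as NF-kB factors, targets and cytokines, so their share of matches is no finding of these data. A match is a description of the letters in the window and was not examined as a binding site. CXCL5 and PTGS2, which passed the filter on low counts through 1 group only, were left out of the counts that follow. In shJOSD2 cells 11 of 19 members with a match and 7 of 12 without fell relative to control, against 20.1% of all genes. The 19 include IL6, which was not tested. In shIDH1 cells 2 of these members with a match rose and 4 fell, and 1 without a match rose and 6 fell. Of all genes tested, 24.5% rose and 25.6% fell there. Whether the letters bear on these changes was not tested.

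In shJOSD2 cells most of the 40 genes that changed fell: the inhibitors and factors NFKBIA, NFKB2 and RELB, the survival factor BIRC3 and the chemokines CXCL8, CXCL1, CCL2 and CCL20 were all lower than in control, while CSF1 rose. In shIDH1 cells the changes ran both ways: NFKB1, CXCL1, CCL2, SOD2 and CSF2 fell, CX3CL1 and TNIP1 rose, and NFKBIA, NFKB2 and BIRC3 did not pass the test. Between the hairpins, most of the members called were higher in shIDH1 than in shJOSD2 cells. In these bulk libraries fewer cells of a type and less RNA per cell cannot be told apart.

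Of the 40 members, 39 passed the filter on low counts and were tested; IL6 was not tested. Every library of every group reached the filter's count level for 34 members, and CXCL5 and PTGS2 passed through 1 group only, CXCL5 through control and PTGS2 through shIDH1. Their tests are conditioned on that group being high, so the counts are also given for the 37 members without them. IL1A and VCAM1 reached the level in 0 control libraries. IL1A did so in 2 shIDH1 libraries and 1 shJOSD2 library, and VCAM1 in 1 and 2. Their tests against control are conditioned in the same way. Both stay among the 37 and were called in no comparison. Genes were called at a Benjamini-Hochberg (BH) adjusted p under 0.05 over the 21492 genes tested by edgeR's quasi-likelihood test. In shIDH1 against control, 6 members rose and 11 fell, where 24.5% and 25.6% of all genes tested rose and fell. At least 2-fold changes were called in 6 members, against 19.2% of all genes, and the FPKM ranges of the groups were separate for 20 members, against 56.9%. In all 17 of the 39 tested members were called, against 50.1% of all genes tested, and their median log2 change was 0.05, against 0.01 for all genes. Without CXCL5 and PTGS2 the calls were the same in number, at 6 and 11 of 37. With upper-quartile scaling the split of members became 13 higher and 10 lower, and that of all genes 6176 higher and 4682 lower, against 5258 and 5511 with TMM scaling. In shJOSD2 against control, 1 member rose and 22 fell, where 18.2% and 20.1% of all genes tested rose and fell. At least 2-fold changes were called in 14 members, against 10.8% of all genes, and the FPKM ranges were separate for 24 members, against 51.7%. In all 23 of the 39 tested members were called, against 38.3% of all genes, and their median log2 change was -0.56, against 0.03 for all genes tested. Without CXCL5 and PTGS2, 1 of 37 members rose and 21 fell, 13 of these changes being at least 2-fold, with a median of -0.56. With library totals in place of TMM scaling the split over all members was 4 members higher and 19 lower, and over all genes 5638 higher and 2934 lower, against 3907 and 4330. In shIDH1 against shJOSD2, 22 members were higher and 5 lower, where 20.8% and 24.0% of all genes were. At least 2-fold differences were called in 11 members, against 14.2%, and ranges were separate for 25, against 58.4%. In all 27 of 39 members differed, against 44.8% of all genes, and their median log2 difference was 0.52, against -0.06 for all genes. Without CXCL5 and PTGS2, 21 of 37 members were higher and 5 lower, 10 of these differences being at least 2-fold, with a median of 0.50. With library totals the split over all members was 18 members higher and 5 lower, and over all genes 3316 higher and 6653 lower, against 4479 and 5156.

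**Figure D1:**
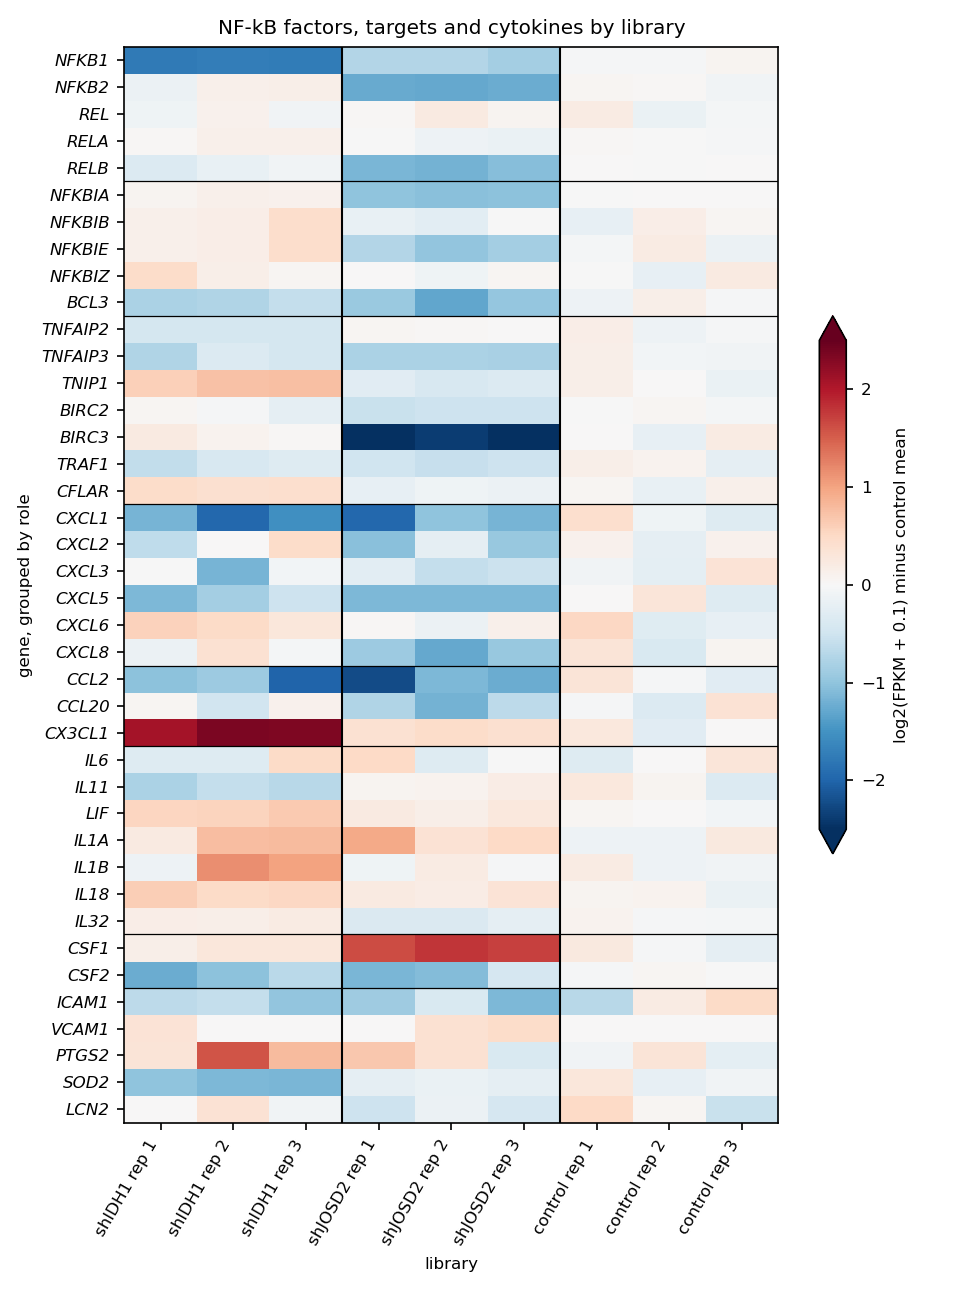
Level of each of the 40 members in each of the 9 libraries, as log2(FPKM + 0.1) minus the mean of the 3 control libraries; rows are genes grouped by role, columns are libraries, red is higher and blue lower than the control mean. BIRC3, NFKB2, RELB and NFKBIA are low in all 3 shJOSD2 libraries, NFKB1 and SOD2 are lowest in the shIDH1 libraries, CX3CL1 is high in shIDH1 and CSF1 in shJOSD2 libraries.

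FPKM values do not carry the TMM scaling of the tests. The TMM factors were 1.07 to 1.08 in shJOSD2 libraries and 0.942 to 0.985 in the other libraries, so a fitted log2 change in shJOSD2 cells lies below the log2 ratio of mean FPKM. In control libraries the most abundant members were TNFAIP2 at a mean of 63.5 FPKM, TNIP1 at 35.7, NFKBIA at 31.5 and LIF at 29.2 FPKM, whose ranges were separate from each other, followed by NFKB2 and IL32, whose ranges of 21.1 to 22.9 and 20.8 to 22.9 FPKM overlapped. Members at 10 FPKM or more numbered 13 in shIDH1, 9 in shJOSD2 and 13 in control cells, and members under 1 FPKM numbered 11, 12 and 10 in the same order of groups. Summed over the 40 members, the level was 411.5, 433.8 and 441.8 FPKM in shIDH1 libraries, 335.9, 333.2 and 342.8 FPKM in shJOSD2 libraries and 407.8, 375.5 and 363.9 FPKM in control libraries, so that shJOSD2 libraries lay lowest and the shIDH1 libraries lay above every control library.

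Among the Rel-domain factors, 4 of 5 fell in shJOSD2 cells and 1 of 5 in shIDH1 cells, against 20.1% and 25.6% of all genes. NFKB1 (ENSG00000109320; GRCh38 chromosome 4, 102501331 to 102617302, plus strand) encodes p105 and its processed form p50. It had 1.59, 1.64 and 1.62 FPKM in shIDH1, 3.37, 3.35 and 3.07 FPKM in shJOSD2 and 5.55, 5.49 and 5.89 FPKM in control libraries. The groups did not overlap and stood in steps, with shIDH1 lowest. NFKB1 fell by 1.80 ± 0.08 (log2, SE) in shIDH1 cells (3.48-fold lower; edgeR, BH-adjusted p = 4.68e-09) and by 0.94 ± 0.08 in shJOSD2 cells (edgeR, BH-adjusted p = 2.13e-06). It was 1.82-fold lower in shIDH1 than in shJOSD2 cells (edgeR, BH-adjusted p = 2.40e-06).

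NFKB2 (ENSG00000077150; chromosome 10, 102394110 to 102402524, plus strand), the p100 precursor of the non-canonical branch, went the other way between the hairpins. It had 20.1, 24.2 and 24.7 FPKM in shIDH1, 9.20, 9.05 and 9.43 FPKM in shJOSD2 and 22.9, 22.8 and 21.1 FPKM in control libraries. The shIDH1 range spans that of control, and the shJOSD2 libraries lie below both. NFKB2 fell by 1.42 ± 0.09 on the log2 scale in shJOSD2 cells (2.67-fold; edgeR, BH-adjusted p = 1.77e-07). In shIDH1 cells its log2 change was 0.05, with a 95% interval from -0.12 to 0.21. RELB (ENSG00000104856) is the partner of processed NFKB2. Its level was 4.75, 5.28 and 5.70 FPKM in shIDH1, 2.66, 2.61 and 2.82 FPKM in shJOSD2 and 6.10, 5.96 and 6.04 FPKM in control libraries. RELB fell 2.48-fold in shJOSD2 cells (edgeR, BH-adjusted p = 1.21e-06), and in shIDH1 cells its log2 change of -0.20 ± 0.10 did not pass the test although the ranges were separate. Between the hairpins, NFKB2 was 2.76-fold and RELB 2.15-fold higher in shIDH1 than in shJOSD2 cells.

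RELA, the main transactivating subunit of the canonical branch, varied less: it had 18.8, 20.1 and 20.3 FPKM in shIDH1, 18.4, 17.0 and 16.4 FPKM in shJOSD2 and 19.0, 18.3 and 18.3 FPKM in control libraries. RELA fell by 0.25 ± 0.06 on the log2 scale in shJOSD2 cells (edgeR, BH-adjusted p = 0.00783), but the FPKM ranges overlapped. The call was lost with library totals (-0.09), upper-quartile scaling (-0.16), limma on log2(FPKM + 1) or log2(FPKM + 0.1) (-0.09 and -0.10), control replicate 1 alone (-0.25) and without shJOSD2 replicate 3 (-0.20). REL, which encodes c-Rel, stayed between 0.613 and 0.829 FPKM in all 9 libraries and passed the test in no comparison. Of its 50-base words, 50.6% also occur in other annotated genes, mainly AC010733.2, so its count is uncertain.

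The IkB proteins retain NF-kB dimers or, for the atypical members, bind them in the nucleus. Their genes fell in 3 of 5 cases in shJOSD2 and in 1 of 5 in shIDH1 cells, against 20.1% and 25.6% of all genes. All 5 were higher in shIDH1 than in shJOSD2 cells, against 20.8% of all genes. NFKBIA (ENSG00000100906; chromosome 14, 35401513 to 35404749, minus strand) encodes the inhibitor IkB-alpha and is itself a direct NF-kB target. It had 32.9, 34.2 and 34.0 FPKM in shIDH1, 15.5, 15.2 and 15.4 FPKM in shJOSD2 and 31.1, 31.5 and 31.7 FPKM in control libraries. The shJOSD2 values are below all others and nearly equal among themselves. NFKBIA fell by 1.18 ± 0.06 on the log2 scale in shJOSD2 cells (2.27-fold; edgeR, BH-adjusted p = 3.99e-08), whereas in shIDH1 cells its log2 change was 0.10 with a 95% interval from -0.01 to 0.20. Upper-quartile scaling turned this value into a call for a rise, at 0.21. NFKBIE encodes IkB-epsilon. Its level was 14.7, 15.3 and 18.4 FPKM in shIDH1, 8.11, 6.73 and 7.49 FPKM in shJOSD2 and 13.1, 15.5 and 12.1 FPKM in control libraries. NFKBIE fell 2.02-fold in shJOSD2 cells (edgeR, BH-adjusted p = 4.50e-05).

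BCL3, an atypical IkB that acts as a coactivator with p50 and p52 dimers, fell with both hairpins. It had 3.88, 3.99 and 4.44 FPKM in shIDH1, 3.51, 2.67 and 3.40 FPKM in shJOSD2 and 6.17, 7.51 and 6.62 FPKM in control libraries, with no overlap between any pair of groups. BCL3 fell 1.65-fold in shIDH1 cells (edgeR, BH-adjusted p = 0.000516) and 2.34-fold in shJOSD2 cells (edgeR, BH-adjusted p = 1.62e-05). NFKBIB, which encodes IkB-beta, and NFKBIZ, the nuclear IkB-zeta, passed the test against control with neither hairpin, with log2 changes of 0.24 and 0.22 in shIDH1 and -0.31 and -0.17 in shJOSD2 cells. With upper-quartile scaling NFKBIB, NFKBIZ and NFKBIE were called higher in shIDH1 cells than in control. NFKBIB and NFKBIZ were higher in shIDH1 than in shJOSD2 cells, by 0.55 ± 0.13 and 0.39 ± 0.12 on the log2 scale, but the NFKBIZ ranges of 4.44 to 5.99 FPKM in shIDH1 and 4.0 to 4.47 FPKM in shJOSD2 libraries overlapped, and its call was lost with library totals (0.24), under limma, and without shIDH1 replicate 1 (0.27) or shJOSD2 replicate 2 (0.34).

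**Figure D2:**
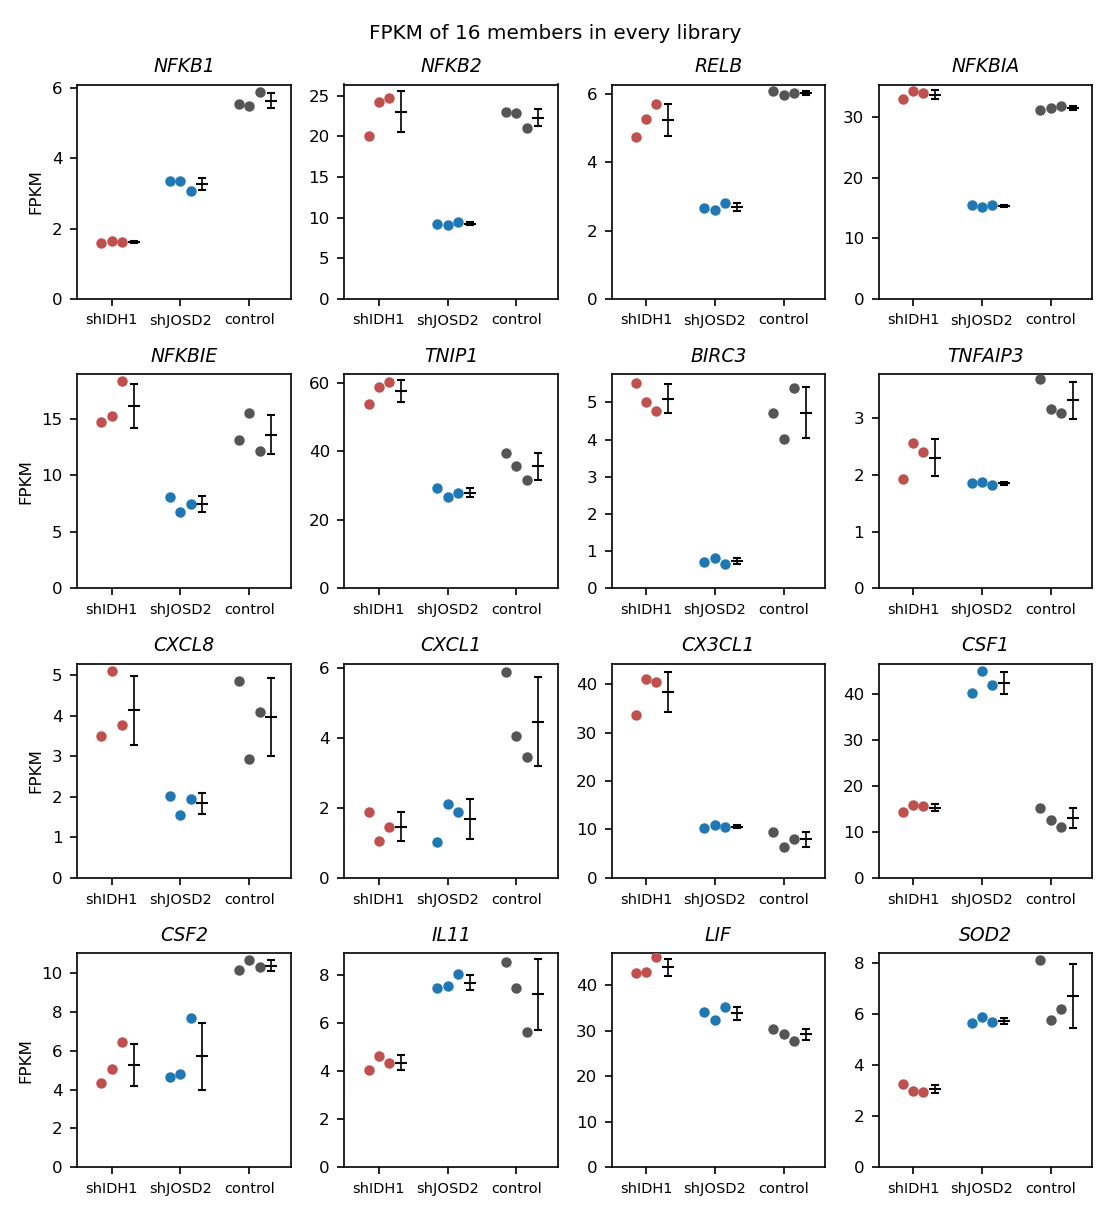
FPKM of 16 members in every library (points), with the mean and SD of the 3 libraries of each group beside them (bars); groups run from shIDH1 through shJOSD2 to control in each panel, and each vertical axis starts at 0. NFKB2, RELB, NFKBIA, NFKBIE, BIRC3 and CXCL8 are lowest in shJOSD2 cells, NFKB1, IL11 and SOD2 are lowest in shIDH1 cells, and CXCL1 and CSF2 lie below control in both.

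The feedback and survival regulators fell in 6 of 7 cases in shJOSD2 cells, against 20.1% of all genes tested. In shIDH1 cells 2 rose and 3 fell, against 24.5% and 25.6% of all genes. BIRC3 (ENSG00000023445; chromosome 11, 102317450 to 102339403, plus strand) encodes cIAP2, an NF-kB-induced ubiquitin ligase that protects from TNF-induced death. It had 5.52, 5.02 and 4.76 FPKM in shIDH1, 0.702, 0.827 and 0.662 FPKM in shJOSD2 and 4.72, 4.03 and 5.40 FPKM in control libraries, or 2994, 2667 and 2682 counts, 386, 435 and 345 counts, and 2587, 2170 and 2877 counts in the same order. Only the shJOSD2 libraries are low, and the shIDH1 and control ranges overlap. BIRC3 was 7.12-fold lower in shJOSD2 cells than in control and 7.70-fold higher in shIDH1 than in shJOSD2 cells (edgeR, BH-adjusted p = 1.31e-08 and 3.93e-09). This was the largest difference in both comparisons among called members with counts in every library. In shIDH1 cells the log2 change of BIRC3 was 0.11, with a 95% interval from -0.10 to 0.32. BIRC2, its neighbour on chromosome 11 that encodes cIAP1, moved in the same direction and less: it had 13.6, 12.9 and 11.2 FPKM in shIDH1, 8.85, 9.09 and 9.11 FPKM in shJOSD2 and 13.0, 13.5 and 12.7 FPKM in control libraries. BIRC2 fell 1.61-fold in shJOSD2 cells (edgeR, BH-adjusted p = 1.39e-05).

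TNIP1, which encodes the A20-binding inhibitor ABIN1, changed in opposite directions with the 2 hairpins. It had 53.9, 58.7 and 60.2 FPKM in shIDH1, 29.2, 26.8 and 28.0 FPKM in shJOSD2 and 39.5, 35.7 and 31.8 FPKM in control libraries, with no overlap between groups. TNIP1 rose by 0.69 ± 0.08 (log2) in shIDH1 cells (edgeR, BH-adjusted p = 1.30e-05) and fell by 0.50 ± 0.08 in shJOSD2 cells (edgeR, BH-adjusted p = 0.000369). It was 2.28-fold higher in shIDH1 than in shJOSD2 cells. CFLAR encodes the caspase-8 inhibitor c-FLIP. Its level was 4.68, 4.47 and 4.54 FPKM in shIDH1, 2.92, 3.14 and 3.06 FPKM in shJOSD2 and 3.48, 2.97 and 3.71 FPKM in control libraries. CFLAR rose by 0.43 ± 0.07 in shIDH1 cells, above every control library. Its fall of 0.30 ± 0.07 in shJOSD2 cells came with overlapping ranges and was lost with library totals (-0.15) and limma on log2(FPKM + 1) (-0.12).

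TNFAIP3 encodes the deubiquitinase A20, which switches NF-kB signalling off. Its level was 1.93, 2.56 and 2.41 FPKM in shIDH1, 1.85, 1.87 and 1.82 FPKM in shJOSD2 and 3.68, 3.15 and 3.09 FPKM in control libraries. Both hairpin groups lay below control, by 1.43-fold in shIDH1 and 1.98-fold in shJOSD2 cells (edgeR, BH-adjusted p = 0.00349 and 5.44e-05). TRAF1, an NF-kB-induced adaptor of TNF receptors, likewise lay below control in both, at 4.45 to 5.41 FPKM in shIDH1 and 4.58 to 4.83 FPKM in shJOSD2, against 5.81 to 7.54 FPKM in control libraries (1.37-fold and 1.62-fold lower). TNFAIP2, a TNF-induced gene whose protein takes part in membrane nanotube formation, fell 1.36-fold in shIDH1 cells (46.4, 46.8 and 46.6 FPKM) and did not pass the test in shJOSD2 cells (65.5, 64.1 and 63.5 FPKM) against control (71.2, 57.6 and 61.7 FPKM).

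The ELR CXC chemokines attract neutrophils through CXCR1 and CXCR2. Leaving out CXCL5, 2 of 5 fell in shJOSD2 cells and 1 of 5 in shIDH1 cells, against 20.1% and 25.6% of all genes. None was called higher than control in shJOSD2 or shIDH1 cells, where 18.2% and 24.5% of all genes were. CXCL8 (ENSG00000169429; chromosome 4, 73740541 to 73743716, plus strand) encodes interleukin-8. It had 3.51, 5.11 and 3.77 FPKM in shIDH1, 2.03, 1.54 and 1.96 FPKM in shJOSD2 and 4.85, 2.94 and 4.08 FPKM in control libraries. The shJOSD2 libraries lie below all others, while the shIDH1 and control ranges overlap. CXCL8 fell 2.36-fold in shJOSD2 cells (edgeR, BH-adjusted p = 0.000370), and in shIDH1 cells its log2 change was 0.07 with a 95% interval from -0.32 to 0.45. CXCL1 (ENSG00000163739; chromosome 4, 73869393 to 73871308, plus strand) had 1.88, 1.05 and 1.44 FPKM in shIDH1, 1.04, 2.11 and 1.89 FPKM in shJOSD2 and 5.88, 4.05 and 3.44 FPKM in control libraries. Here both hairpin groups are low and overlap each other. CXCL1 fell 3.05-fold in shIDH1 cells (edgeR, BH-adjusted p = 0.000588) and 2.93-fold in shJOSD2 cells (edgeR, BH-adjusted p = 0.00119), and the 95% interval of the log2 difference between the hairpins ran from -0.63 to 0.52.

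The near-copies of CXCL1, whose promoter windows are printed above, were scarcer and less certain. CXCL2 had 0.368, 0.629 and 0.899 FPKM in shIDH1, 0.251, 0.523 and 0.273 FPKM in shJOSD2 and 0.683, 0.520 and 0.682 FPKM in control libraries, or 26 to 95 counts per library, and passed the test in no comparison. It was called lower in shJOSD2 cells than in control (log2 change -1.36) and higher in shIDH1 than in shJOSD2 cells (1.39) without shJOSD2 replicate 2, and also higher in shIDH1 than in shJOSD2 cells without shIDH1 replicate 1 (1.27) or with counts divided by 4 (1.03). CXCL3 stayed at or below 0.273 FPKM, with 6 to 45 counts, and also passed in none. Of their 50-base words, CXCL1, CXCL2 and CXCL3 share 5.73%, 9.24% and 5.26% with other genes, chiefly with each other. CXCL6 had 1.55, 1.44 and 1.25 FPKM in shIDH1, 1.02, 0.903 and 1.10 FPKM in shJOSD2 and 1.48, 0.798 and 0.853 FPKM in control libraries, and passed in none, although its shIDH1 libraries lay above all shJOSD2 libraries. Its log2 difference of 0.62 between shIDH1 and shJOSD2 cells (edgeR, BH-adjusted p = 0.0514) was called in 8 of 20 alternatives, at 0.62 to 0.65, and its log2 change of 0.43 in shIDH1 cells against control was called without control replicate 1 (0.75). CXCL5 had 0, 4 and 10 counts in shIDH1, 0, 0 and 0 counts in shJOSD2 and 22, 30 and 13 counts in control libraries. Neither its tests nor a fold are used here, since it passed the filter only through the control libraries, where it is high.

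Among the other chemokines, CX3CL1 rose in shIDH1 cells, and CCL2 fell with both hairpins. CX3CL1 (ENSG00000006210; chromosome 16, 57372477 to 57385044, plus strand) encodes fractalkine, a membrane-bound chemokine for CX3CR1-bearing lymphocytes and monocytes. It had 33.7, 41.0 and 40.5 FPKM in shIDH1, 10.3, 10.9 and 10.5 FPKM in shJOSD2 and 9.57, 6.46 and 7.98 FPKM in control libraries. CX3CL1 rose 4.81-fold in shIDH1 cells (log2 change 2.27 ± 0.12; edgeR, BH-adjusted p = 1.27e-08), the largest rise there among the members called. In shJOSD2 cells its FPKM values lay above all control values, but the fitted log2 change of 0.26 ± 0.11 did not pass the test (edgeR, BH-adjusted p = 0.0902). It passed with upper-quartile scaling (0.35), library totals (0.41), a stricter filter or counts divided by 4 (0.28 each), limma on log2(FPKM + 1) (0.38) and without control replicate 1 (0.40).

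CCL2 (ENSG00000108691) is the monocyte attractant MCP-1. Its level was 0.993, 1.09 and 0.458 FPKM in shIDH1, 0.375, 0.927 and 0.846 FPKM in shJOSD2 and 2.69, 2.08 and 1.74 FPKM in control libraries. All 6 hairpin libraries lie below all 3 control libraries. CCL2 fell 2.53-fold in shIDH1 cells and 3.30-fold in shJOSD2 cells (edgeR, BH-adjusted p = 0.00755 and 0.00243). CCL20 (ENSG00000115009) is the ligand of the receptor CCR6 on T cells and dendritic cells. Its level was 2.23, 1.51 and 2.30 FPKM in shIDH1, 1.23, 0.881 and 1.31 FPKM in shJOSD2 and 2.10, 1.66 and 2.79 FPKM in control libraries. CCL20 fell 2.09-fold in shJOSD2 cells (edgeR, BH-adjusted p = 0.00467), and in shIDH1 cells the 95% interval of its log2 change ran from -0.60 to 0.36.

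Of the 6 tested interleukins including LIF, 3 rose and 1 fell in shIDH1 cells, against 24.5% and 25.6% of all genes. In shJOSD2 cells 1 fell, against 20.1% of all genes. LIF (ENSG00000128342; chromosome 22, 30240453 to 30246759, minus strand), an IL-6-family cytokine that signals through LIFR and gp130, was the most abundant cytokine gene of the list in control cells. It had 42.6, 42.9 and 46.1 FPKM in shIDH1, 34.0, 32.4 and 35.1 FPKM in shJOSD2 and 30.4, 29.4 and 27.9 FPKM in control libraries. LIF rose 1.5-fold in shIDH1 cells (edgeR, BH-adjusted p = 5.44e-06). In shJOSD2 cells the FPKM ranges were separate from control, but the log2 change of 0.06, with a 95% interval from -0.06 to 0.19, did not pass. IL18 is an IL-1-family cytokine of epithelial cells that induces interferon gamma. Its level was 23.2, 21.1 and 21.6 FPKM in shIDH1, 17.6, 17.2 and 19.1 FPKM in shJOSD2 and 15.9, 15.97 and 13.4 FPKM in control libraries. IL18 rose 1.45-fold in shIDH1 cells (edgeR, BH-adjusted p = 0.000120). In shJOSD2 cells LIF and IL18 passed the test with library totals, at log2 changes of 0.22 and 0.26.

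IL11, an IL-6-family cytokine tied to fibrosis, fell in shIDH1 cells. Its level was 4.04, 4.64 and 4.35 FPKM in shIDH1, 7.46, 7.51 and 8.02 FPKM in shJOSD2 and 8.51, 7.45 and 5.60 FPKM in control libraries. It was 1.66-fold lower in shIDH1 cells than in control (edgeR, BH-adjusted p = 0.000618). IL32, a proinflammatory cytokine gene of primates, had 24.4, 24.0 and 24.8 FPKM in shIDH1, 16.9, 16.7 and 18.4 FPKM in shJOSD2 and 22.9, 21.2 and 20.8 FPKM in control libraries. IL32 fell 1.38-fold in shJOSD2 cells (edgeR, BH-adjusted p = 5.93e-05) and rose 1.13-fold in shIDH1 cells (edgeR, BH-adjusted p = 0.0277). The rise was lost against control replicate 1 alone (log2 change 0.13) and without control replicate 3 (0.15), shIDH1 replicate 2 (0.18) or shIDH1 replicate 3 (0.15). The classical cytokines were scarce. IL6 had 0, 0 and 12 counts in shIDH1, 12, 0 and 5 counts in shJOSD2 and 0, 4 and 8 counts in control libraries, and IL1A at most 16 counts in any library. IL1A passed the test in no comparison. Calls gained against control without control replicate 3 are not used here, since the other control libraries are at 0. IL1A also reached the filter's count level only in hairpin libraries. IL1B, the secreted IL-1 beta, had 0.169, 0.556 and 0.485 FPKM in shIDH1, 0.172, 0.235 and 0.186 FPKM in shJOSD2 and 0.239, 0.169 and 0.175 FPKM in control libraries. It was called 2.25-fold higher in shIDH1 than in shJOSD2 cells (edgeR, BH-adjusted p = 0.0410) although the ranges overlapped. That call was lost with library totals, without filtering, under limma and when shIDH1 replicate 2, shIDH1 replicate 3 or any shJOSD2 library was left out. In shIDH1 cells against control the log2 change of IL1B was 1.05 and did not pass (edgeR, BH-adjusted p = 0.0591). It passed with upper-quartile scaling, a stricter filter, counts divided by 4 and without shIDH1 replicate 1.

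The colony-stimulating factors diverged. CSF1 (ENSG00000184371; chromosome 1, 109910242 to 109930992, plus strand) encodes the macrophage growth factor M-CSF. Its level was 14.3, 15.7 and 15.6 FPKM in shIDH1, 40.2, 44.8 and 42.0 FPKM in shJOSD2 and 15.2, 12.6 and 11.02 FPKM in control libraries. The shJOSD2 libraries stand far above all others. CSF1 rose 2.95-fold in shJOSD2 cells (log2 change 1.56 ± 0.10; edgeR, BH-adjusted p = 2.34e-07), the sole member that rose there. In shIDH1 cells its log2 change of 0.23 ± 0.10 did not pass, but it did with upper-quartile scaling (0.34), DESeq2 (0.24), a stricter filter or counts divided by 4 (0.25 each), and without shIDH1 replicate 1 (0.28) or control replicate 1 (0.35). CSF2 (ENSG00000164400; chromosome 5, 132073789 to 132076170, plus strand) encodes the granulocyte-macrophage factor GM-CSF. Its level was 4.33, 5.07 and 6.43 FPKM in shIDH1, 4.63, 4.82 and 7.69 FPKM in shJOSD2 and 10.1, 10.7 and 10.3 FPKM in control libraries. All 6 hairpin libraries lie below control, and CSF2 fell 1.97-fold in shIDH1 and 2.01-fold in shJOSD2 cells (edgeR, BH-adjusted p = 0.00201 and 0.00240).

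Of the adhesion molecules and effector enzymes, 2 of 5 fell with each hairpin. The shares of all genes that fell were 25.6% in shIDH1 and 20.1% in shJOSD2 cells. SOD2 is the mitochondrial superoxide dismutase and a known NF-kB target. Its level was 3.27, 2.99 and 2.95 FPKM in shIDH1, 5.65, 5.87 and 5.67 FPKM in shJOSD2 and 8.13, 5.78 and 6.21 FPKM in control libraries. SOD2 fell 2.18-fold in shIDH1 cells (edgeR, BH-adjusted p = 7.32e-07). Its 1.29-fold fall in shJOSD2 cells (edgeR, BH-adjusted p = 0.00716) came with overlapping ranges and was lost with library totals (log2 change -0.22) and limma on log2(FPKM + 1) (-0.18). Of the 50-base words of SOD2, 10.4% occur in other annotated gene entries. The largest share, 5.26%, is with a second entry also named SOD2, followed by HELLPAR at 1.67%. ICAM1, the leukocyte adhesion molecule, was scarce, at 0.279, 0.294 and 0.198 FPKM in shIDH1, 0.219, 0.356 and 0.172 FPKM in shJOSD2 and 0.265, 0.586 and 0.731 FPKM in control libraries. It was called lower with both hairpins (2.04-fold and 2.31-fold; edgeR, BH-adjusted p = 0.0451 and 0.0291), but control replicate 1 lay inside the hairpin ranges. Against that library alone the log2 changes were -0.04 in shIDH1 and -0.22 in shJOSD2 cells, and neither passed. Both calls were also lost without filtering, under limma, and without control replicate 2, control replicate 3 or shJOSD2 replicate 1, and the call in shIDH1 cells without any of the shIDH1 libraries. VCAM1 had 12, 0 and 0 counts in shIDH1, 0, 13 and 16 counts in shJOSD2 and 0 in each control library, and passed in no comparison. PTGS2, which encodes cyclooxygenase-2, had 24, 107 and 51 counts in shIDH1, 42, 26 and 0 counts in shJOSD2 and 9, 25 and 4 counts in control libraries, and likewise passed in none. A call gained in shIDH1 cells without shJOSD2 replicate 3 is not used here. PTGS2 passed the filter only through the shIDH1 libraries, where it is high. LCN2, a siderophore-binding lipocalin, had 5.29, 6.74 and 4.91 FPKM in shIDH1, 3.64, 4.76 and 3.93 FPKM in shJOSD2 and 7.46, 5.46 and 3.56 FPKM in control libraries; control replicate 1 is the highest and replicate 3 the lowest of all 9. LCN2 was called higher in shIDH1 than in shJOSD2 cells (1.52-fold; edgeR, BH-adjusted p = 0.0485), a call lost with library totals (log2 difference 0.45), without filtering, under limma, and without any 1 of the shIDH1 libraries, shJOSD2 replicate 1 or 3, or control replicate 2 (0.455 to 0.686).

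Read across the groups, the members fell into a few patterns. All comparisons share libraries, so the patterns are given as a description of the calls and not as evidence from separate experiments. NFKB1, BCL3, TNFAIP3, TRAF1, CXCL1, CCL2 and CSF2 were called lower than control in each hairpin group, as were SOD2 and ICAM1, whose calls in shJOSD2 cells (SOD2) or in both groups (ICAM1) are lost in the settings given with them. NFKB2, RELB, NFKBIA, NFKBIE, BIRC2, BIRC3, CXCL8 and CCL20 were lower in shJOSD2 cells than in control and than in shIDH1 cells, as was RELA, whose call against control is lost in the settings given with it. CX3CL1, LIF, IL18, TNIP1 and CFLAR were higher in shIDH1 cells than in both other groups. So was IL32, whose call against control is lost in the settings given with it. TNIP1, CFLAR and IL32 were also called lower in shJOSD2 cells than in control, the CFLAR call being lost in the settings given with it. NFKB1, TNFAIP2, IL11 and SOD2 were lower in shIDH1 cells than in both other groups, and CSF1 was higher in shJOSD2 cells than in both. The 7 tested members called in no comparison were REL, CXCL2, CXCL3, CXCL6, IL1A, VCAM1 and PTGS2, none of which exceeded 1.55 FPKM in any library.

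**Figure D3:**
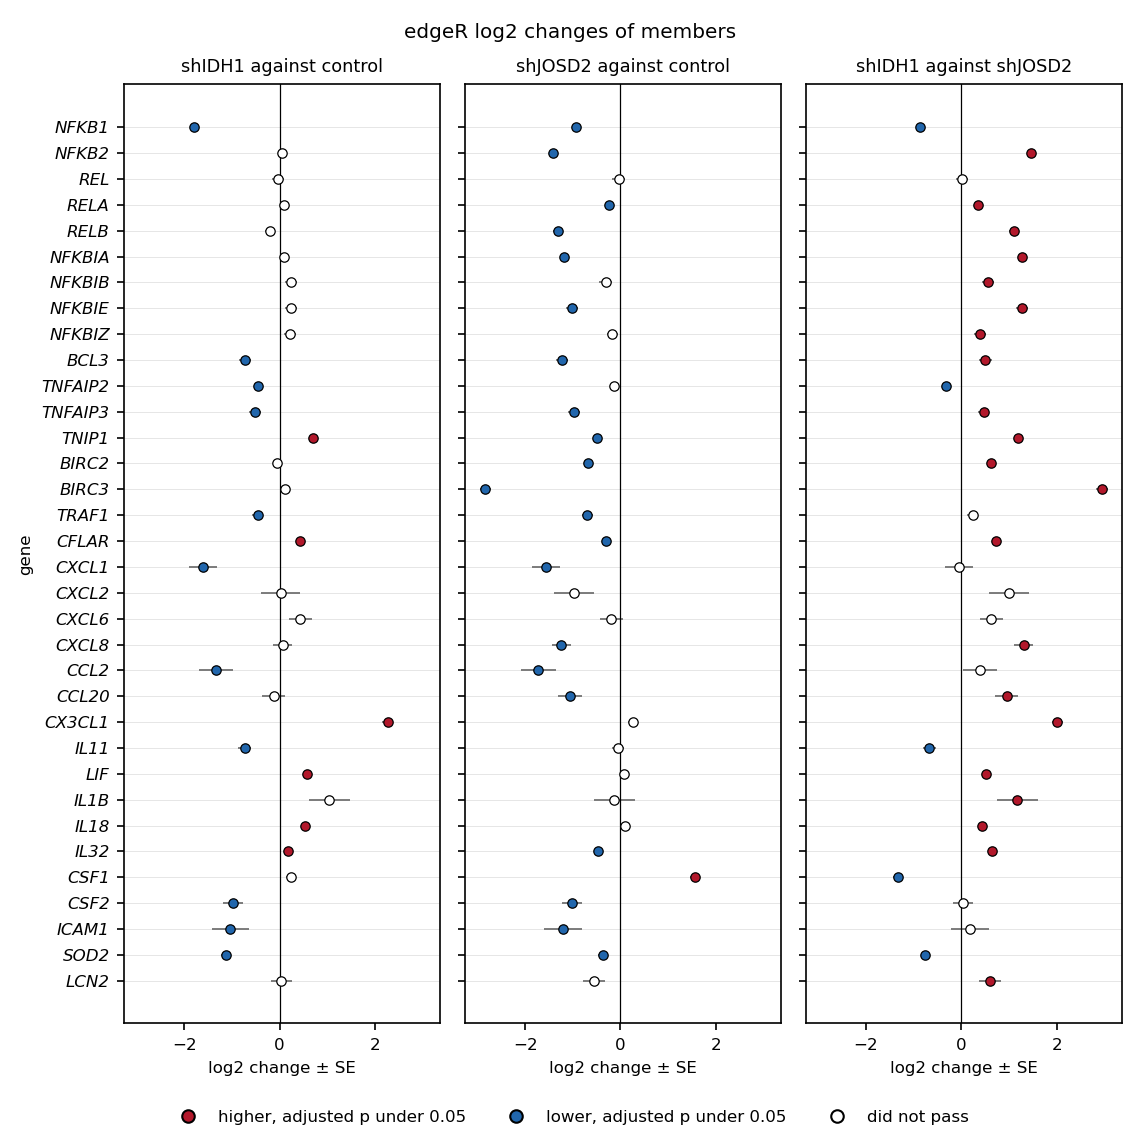
Fitted log2 changes with SE of the 34 members measured in every library at the filter's count level, in shIDH1 against control, shJOSD2 against control and shIDH1 against shJOSD2; filled red is higher and filled blue lower at an adjusted p under 0.05, open circles did not pass. In the middle panel CSF1 is the only filled point right of 0, and in the right panel BIRC3 is the furthest right at 2.94.

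Against control replicate 1 alone, which was assumed to vary like the libraries of the other groups, 6 members rose and 10 fell in shIDH1 cells, where 16.9% and 18.0% of all genes tested did (34.8% in either direction), and 1 rose and 21 fell in shJOSD2 cells, where 10.4% and 12.5% did (22.9% in either direction). NFKB1, with log2 changes of -1.74 in shIDH1 and -0.88 in shJOSD2 cells, moved little from the fit with all controls, as did BIRC3 at -2.81 and NFKBIA at -1.13 in shJOSD2 cells. CXCL1 lay further below that library, at -1.97 in shIDH1 and -1.92 in shJOSD2 cells, and CX3CL1 rose by 2.04 in shIDH1 cells. In shIDH1 cells the calls of IL32 (log2 change 0.13 in place of 0.17) and ICAM1 (-0.04 in place of -1.03) were lost, and NFKBIB was called higher (log2 change 0.50). In shJOSD2 cells the calls of RELA and ICAM1 were lost; the log2 change of RELA was -0.25 in both fits, while that of ICAM1 was -0.22 in place of -1.21. Also in shJOSD2 cells, TNFAIP2 (-0.26) and LCN2 (-0.97) were called lower. Control replicate 1 was thus on the low side for ICAM1 and NFKBIB and on the high side for LCN2, CXCL1 and TNFAIP2.

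**Figure D4:**
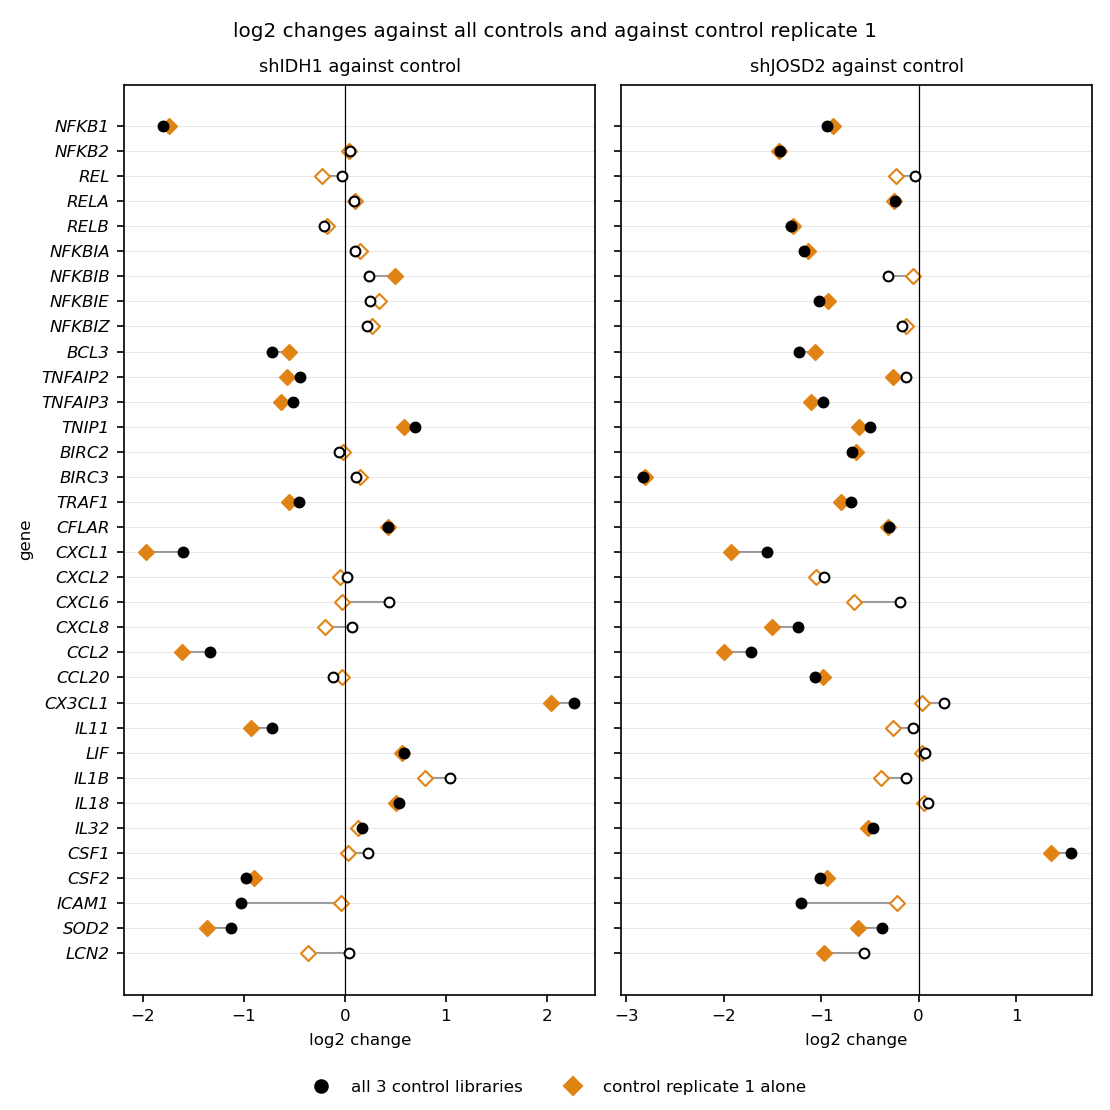
Fitted log2 change of the same 34 members against all 3 control libraries (black circles) and against control replicate 1 alone (orange diamonds), for shIDH1 on the left and shJOSD2 on the right; filled symbols passed an adjusted p under 0.05. The symbols lie close together for NFKB1, NFKBIA and BIRC3, and far apart for ICAM1, at -1.03 and -0.04 in shIDH1 cells.

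Other genes of the pathway, 59 in 6 lists of which 57 genes were tested, changed in both directions with each hairpin: 21 rose and 16 fell in shIDH1 cells, and 18 rose and 14 fell in shJOSD2 cells. Of all genes tested, 24.5% rose and 25.6% fell in shIDH1 cells, and 18.2% rose and 20.1% fell in shJOSD2 cells. Of 17 adaptors and kinases that lead to IKK, 2 rose and 8 fell in shIDH1 cells, and 4 rose and 6 fell in shJOSD2 cells. MAP3K14 encodes NIK, the kinase that drives NFKB2 processing. Its level was 37.1, 38.2 and 40.6 FPKM in shIDH1, 10.9, 11.3 and 10.1 FPKM in shJOSD2 and 17.1, 19.8 and 18.3 FPKM in control libraries. The groups are fully separate, with a rise of 1.07 ± 0.08 in shIDH1 cells and a fall of 0.92 ± 0.08 in shJOSD2 cells on the log2 scale (edgeR, BH-adjusted p = 2.55e-07 and 2.97e-06). TRAF3, an adaptor that targets NIK for degradation, fell 2.41-fold in shIDH1 cells to 3.58, 3.86 and 4.02 FPKM, and had 7.36, 7.84 and 7.19 FPKM in shJOSD2 and 9.35, 8.38 and 9.87 FPKM in control libraries. TRAF2, which acts with TRAF3 and the cIAPs, fell 2.22-fold in shJOSD2 cells to 12.1, 11.01 and 12.3 FPKM, and had 18.8, 19.5 and 20.8 FPKM in shIDH1 and 22.9, 26.5 and 21.3 FPKM in control libraries. MYD88, the adaptor of Toll-like and IL-1 receptors, fell 3.11-fold in shIDH1 cells to 3.78, 3.50 and 3.34 FPKM, against 10.8, 10.9 and 11.3 FPKM in control. TRAF3 also fell 1.36-fold in shJOSD2 cells. Smaller falls were called for TRAF2 in shIDH1 and MYD88 in shJOSD2 cells (log2 changes -0.26 and -0.27), and each was lost in some alternatives. TAB3, a TAK1-binding protein, rose by 0.83 on the log2 scale in shJOSD2 cells and by 0.52 in shIDH1 cells.

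Of 11 receptors that signal to NF-kB, 7 rose and 2 fell in shIDH1 cells, and 4 rose and 2 fell in shJOSD2 cells, where of all genes tested 24.5% rose and 25.6% fell in shIDH1 and 18.2% rose and 20.1% fell in shJOSD2 cells. IL1RAP, the shared accessory chain of IL-1-family receptors, rose 4.72-fold in shIDH1 cells to 7.59, 8.09 and 8.15 FPKM and 1.76-fold in shJOSD2 cells to 3.08, 3.31 and 3.45 FPKM, against 1.80, 1.38 and 1.86 FPKM in control. TNFRSF11A, which encodes the RANK receptor, was at 0.451, 0.600 and 0.541 FPKM in shJOSD2 libraries, against 2.02, 2.03 and 1.96 FPKM in control, a 4.17-fold fall. It also fell 1.80-fold in shIDH1 cells. TLR3 and TLR4, Toll-like receptors, rose by log2 changes of 1.36 and 1.01 in shIDH1 cells, and by 0.98 and 0.34 in shJOSD2 cells. They stood at 0.472 to 0.547 FPKM and 1.88 to 2.14 FPKM in shIDH1, against 0.142 to 0.283 FPKM and 0.860 to 1.09 FPKM in control libraries. The TLR3 call in shIDH1 cells was lost against control replicate 1 alone (0.87), as were the TLR3 and TLR4 calls in shJOSD2 cells (0.49 and 0.23). The TLR3 call in shJOSD2 cells was also lost without shJOSD2 replicate 3, control replicate 2 or control replicate 3. CD40, a TNF-receptor family member that feeds both branches, was higher in shIDH1 than in shJOSD2 cells by 0.69. Among the ligands that induce NF-kB, TNFSF15 (TL1A) rose 5.14-fold in shIDH1 cells to 33.0, 34.7 and 35.5 FPKM, against 9.18, 5.04 and 5.92 FPKM in control, while TNF itself did not exceed 0.353 FPKM in any library. TNFSF15 also rose in shJOSD2 cells (log2 change 0.56), a call lost against control replicate 1 alone (0.13). TNFSF10 (TRAIL) rose with a log2 change of 1.32 in shIDH1 cells and did not pass in shJOSD2 cells (0.20).

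Of 7 regulators of linear ubiquitin chains and deubiquitinases, OTULIN, which cleaves linear chains, fell 2.34-fold in shJOSD2 cells, and the deubiquitinase CYLD fell 1.54-fold in shIDH1 and rose 1.55-fold in shJOSD2 cells. RNF31, the catalytic subunit of the linear ubiquitin assembly complex, rose by 1.3 ± 0.31 in shIDH1 and 0.94 ± 0.30 in shJOSD2 cells, and neither call held against control replicate 1 alone (0.78 and 0.41). The call of RNF31 in shJOSD2 cells was also lost with DESeq2, without filtering, and without shJOSD2 replicate 1, control replicate 2 or control replicate 3. RBCK1, which encodes another subunit of that complex, was higher in shIDH1 than in shJOSD2 cells by 0.76 on the log2 scale. TNIP2, which encodes ABIN2, fell by 1.15 and 0.66 on the log2 scale in shIDH1 and shJOSD2 cells. Of 13 receptors for the member cytokines, 5 rose and 1 fell with each hairpin, against the same shares of all genes. IL6R rose 3.43-fold in shJOSD2 cells to 15.9, 15.8 and 16.1 FPKM, and had 4.18, 4.03 and 3.78 FPKM in shIDH1 and 4.33, 4.14 and 4.07 FPKM in control libraries. LIFR is the receptor of LIF. Its level was 3.00, 3.02 and 3.04 FPKM in shIDH1, 2.05, 2.15 and 2.15 FPKM in shJOSD2 and 1.32, 0.951 and 1.09 FPKM in control libraries, and like LIF it was highest in shIDH1 cells. CSF1R, the receptor of CSF1, was called higher by 1.36 ± 0.41 in shJOSD2 cells at no more than 0.408 FPKM. That call was lost without filtering and without shJOSD2 replicate 1 (1.35) or shJOSD2 replicate 3 (1.33), and the log2 change was 2.62 against control replicate 1 alone. CSF2RA, a chain of the GM-CSF receptor, was called lower with both hairpins at no more than 0.326 FPKM, with neither call left against control replicate 1 alone. IL11RA, the receptor of IL11, rose by 1.40 and 1.46 in shIDH1 and shJOSD2 cells, and IL6ST, which encodes the shared chain gp130, was higher in shIDH1 than in shJOSD2 cells by 0.71. Of 5 factors that act with NF-kB at cytokine genes, IRF1 rose 2.19-fold in shIDH1 and fell 1.8-fold in shJOSD2 cells, with 6.24, 7.65 and 8.61 FPKM in shIDH1, 2.02, 2.28 and 2.03 FPKM in shJOSD2 and 3.38, 3.31 and 3.58 FPKM in control libraries. CEBPB and CEBPD, leucine-zipper factors of acute-phase genes, rose by 1.27 and 1.67 (log2) in shIDH1 cells. CEBPD also rose by 0.80 in shJOSD2 cells, a call lost against control replicate 1 alone (0.70).

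**Figure D5:**
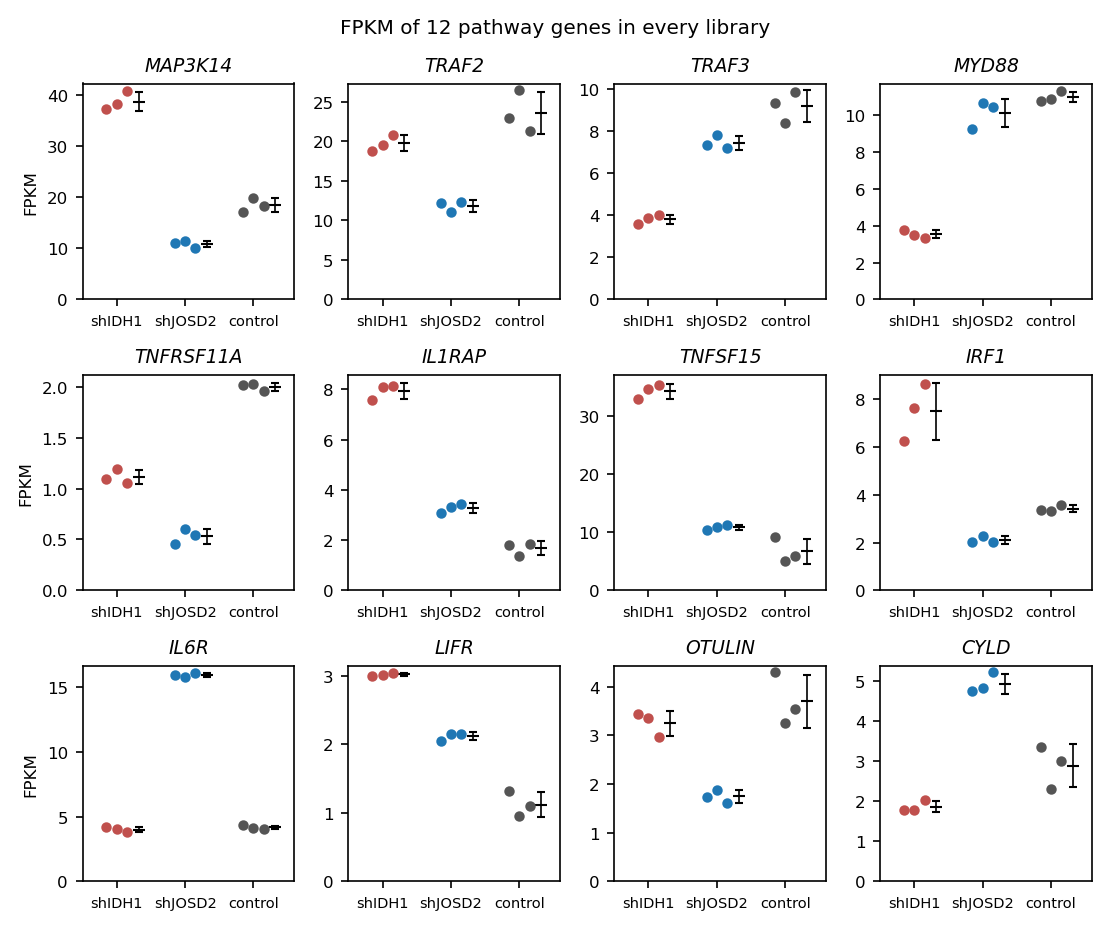
FPKM of 12 other genes of the pathway in every library (points), with mean and SD of the 3 libraries of each group (bars); each vertical axis starts at 0 and groups run from shIDH1 through shJOSD2 to control. MAP3K14 and IRF1 are highest in shIDH1 and lowest in shJOSD2 cells, MYD88 and TRAF3 are lowest in shIDH1 cells, and IL6R is high in shJOSD2 cells only among the 3 groups.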

How the data were processed

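Poly(A) RNA of 9 libraries of RBE cells was measured. Per the labels' protocols, RNA was selected with oligo(dT), turned into strand-marked libraries whose adapters carry molecular identifiers, and read from both ends. Per the submitters' processing notes, the tools were StringTie 1.3.4d, UMI-tools, HISAT2 2.0.4 and cutadapt 1.9, with the build GRCh38. Counting step, annotation release and strand setting were not given in the sources used here. Reads of overlapping or antisense genes may therefore be shared. The deposited counts are whole numbers, not normalized, per the file headers. The deposited FPKM values are the authors', per the file headers, scaled for length and library size. Coordinates are those of the deposited table.

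Genes were kept by filterByExpr (minimum count 10; 21492 genes), scaled by TMM and tested with edgeR 4.0.16 in R 4.3.3 by quasi-likelihood F-tests in 1 fit of 9 libraries with a mean per group, with Benjamini-Hochberg adjustment over all genes tested at 0.05. The SE of a log2 change was its size divided by the root of the F statistic. FPKM ranges are over the 3 libraries of a group. No fold was given where a group was at 0. With counts divided by 4, pairs of replicates gave chi-square values of 3.62 to 10 for each degree of freedom; no pair agreed within counting noise, so none was merged, which does not show that they are separate cultures. The edgeR step was tested on simulated data. Alternatives were other scalings and filters, DESeq2 1.42.0, limma 3.58.1 on log2 FPKM, counts divided by 4, a replicate block, control replicate 1 as the lone control and each library left out.

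The members and the lists of pathway and marker genes were chosen with earlier results of these data known. All 40 members are accounted for; of each pathway list, up to 3 called genes with the largest log2 change per comparison are named. Promoters are shown for the ELR chemokines and for the furthest-falling called members with counts in every library. Promoter sequences are from RefSeq (GRCh38.p14), and shared 50-base words were counted in GENCODE transcripts. Figures were drawn with matplotlib 3.10.9.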

Additional observations from a re-analysis of the deposited data

How the results depend on the processing

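Over 20 alternatives, 2313 recomputed log2 changes of the 39 tested members included 2179 on the same side of the threshold, 78 that lost a call, 56 that gained one and 0 called changes that reversed. For 28 named pathway genes and hairpin targets, 1680 values included 53 lost calls, 3 gained calls and 0 reversals. Leaving out each library in turn gave 15 to 19 called members for shIDH1 against control, 21 to 25 for shJOSD2 against control and 24 to 27 between the hairpins, and the other settings gave 16 to 23, 22 to 24 and 22 to 28. The number of members higher in shIDH1 than in control became 13 with upper-quartile scaling, against 6 with TMM. The number higher in shJOSD2 than in control, 1 with TMM, became 4 with library totals, limma on log2(FPKM + 1) and limma on log2(FPKM + 0.1), became 2 with upper-quartile scaling, a stricter filter on low counts and counts divided by 4, and lay between 1 and 2 with each library left out, at 2 without control replicate 1 or control replicate 3. These settings also moved the median log2 change of all genes: to 0.12 in both comparisons with control under upper-quartile scaling, and to 0.18 in shJOSD2 against control and -0.21 between the hairpins under library totals. Deviations of same-numbered libraries had correlations of -0.018 to 0.0378, and those of differently numbered libraries -0.0549 to 0.0287. The highest values were thus in same-numbered pairs, but all were small. No clear pairing is seen, and such small correlations cannot exclude one. With a replicate block, 16, 23 and 25 members were called in shIDH1 against control, shJOSD2 against control and shIDH1 against shJOSD2, and the calls lost were ICAM1 in shIDH1 cells and CXCL5 and IL1B between the hairpins. All these counts include CXCL5, which passed the filter through control only. The 56 gained calls include those of IL1A and PTGS2, which are not used above. IL6, IL1A and VCAM1 had at most 16 counts in any library, which would be few fragments if each carries about 4 counts.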
